A study of Mus musculus with 16 samples.

Results

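Integrins are cell-surface adhesion receptors built from 1 alpha and 1 beta chain, and the chain pairs on a lymphocyte set which vessels it leaves and which tissue layers it holds on to. The 10 genes described here encode the chains best known from lymphocytes that live in the gut: Itgae, Itga4, Itgb7, Itgb1, Itgal, Itgb2, Itgav, Itgb3, Itga6 and Itga1. They were chosen by gene symbol, as 10 of 53465 genes in the table of counts, and 10 of the 10 passed the expression filter that left 11742 genes for testing. The choice used no measured value, although earlier results of these data were known when it was made.

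The RNA came from group 2 innate lymphoid cells (ILC2), lymphocytes that live in tissue and make type 2 cytokines, sorted from the first 5 cm of the small intestine of untreated C57BL/6 mice aged 6 to 10 weeks. The Alox5 KO mice lacked 5-lipoxygenase, the enzyme that starts leukotriene synthesis. The Il25 KO mice lacked the tuft cell cytokine IL-25 and also carried the Yarg reporter in both copies of Arg1. The St2 KO mice lacked ST2, the IL-33 receptor encoded by Il1rl1, and carried Yarg in the same way. The wild type (WT) mice had none of these alleles, and all 4 genotypes were homozygous for the Smart13 reporter at Il13. Each genotype had 4 libraries. The comparisons ask how resting ILC2 differ when leukotrienes, IL-25 or IL-33 signals are missing. Il25 KO and St2 KO differ from WT by the Yarg allele as well as by the knockout, and the 2 cannot be told apart in a comparison with WT.

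The pairs that the 10 chains form have known partners. The beta7 chain joins alpha4 to make the receptor for MAdCAM-1, the address signal of gut venules, and joins alphaE (CD103) to make the receptor for E-cadherin on epithelial cells. The alpha4 chain also joins beta1 to bind VCAM-1 and fibronectin. The alphaL and beta2 chains form LFA-1, which binds ICAM proteins on other cells. The alphav chain joins beta3, beta1 and further beta chains to bind vitronectin and related matrix proteins, and some alphav pairs release active TGF-beta from its latent form. The alpha6 and alpha1 chains join beta1 to bind laminin and collagen. TGF-beta signalling is a well-known inducer of Itgae in T cells.

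The promoters of Itga4 and Itgb7 are shown because these genes encode both chains of the MAdCAM-1 receptor, and their transcripts differed in how much they varied between libraries. Each line gives the bases that end just before the annotated start of the gene, from the RefSeq promoter table of GRCm38.p6, for Itga4 at chr2:79255176-79255425 on the plus strand (250 bases) and for Itgb7 at chr15:102231945-102232185 on the minus strand (241 bases). Capitals mark matches on either strand to the SMAD motif CAGAC and the RUNX motif TGTGGT.
Itga4: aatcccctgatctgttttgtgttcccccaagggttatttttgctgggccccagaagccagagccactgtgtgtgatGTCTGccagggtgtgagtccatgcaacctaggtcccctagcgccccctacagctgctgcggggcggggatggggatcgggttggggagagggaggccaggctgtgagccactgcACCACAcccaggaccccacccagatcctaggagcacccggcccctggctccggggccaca
Itgb7: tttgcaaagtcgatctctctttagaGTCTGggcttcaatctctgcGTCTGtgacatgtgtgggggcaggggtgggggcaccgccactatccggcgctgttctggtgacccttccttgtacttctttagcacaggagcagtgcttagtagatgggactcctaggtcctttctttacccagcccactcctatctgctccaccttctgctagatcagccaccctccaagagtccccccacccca
The Itga4 window held 1 match to CAGAC and 1 to TGTGGT, and the Itgb7 window held 2 matches to CAGAC and 0 to TGTGGT. Neither window held the AP-1 motif TGANTCA, the GATA motif AGATAA or the ETS motif GGAAGT. Among 32851 promoters of the table, 42.2% held CAGAC, 14.0% TGTGGT, 6.75% TGANTCA, 9.99% AGATAA and 19.7% GGAAGT, so such matches are common. Promoter rows were matched for 5 of the 10 genes. No marked match overlaps another.

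Libraries held between 2086864 and 3216937 counts in all (median 2625205.5). The sample codes fall into 3 sets: TS holds replicates 1 and 2 of every genotype, TT the later pair (replicates 3 and 4) of Alox5 KO and WT, and TY the later pair of Il25 KO and of St2 KO. Xist, an RNA of the inactive X chromosome, gave 982 to 1682 counts in the 4 TY libraries and no more than 7 in the other 12, and Y-linked Ddx3y gave no more than 2 in TY and 709 or more elsewhere, so TY was read as female. Il25 KO and St2 KO therefore share only set TS with WT, and the model has the set as a term. All 15 ILC2 markers were detected in every library, with summed levels of 6863 to 9158 CPM (counts scaled to the library total). The sums were 6863 to 7798 CPM in St2 KO, below the 7801 to 8199 CPM of WT and the 7821 to 8463 CPM of Il25 KO. In Alox5 KO they were 7718 to 9158 CPM. For Il25 KO over St2 KO, 12 of the 15 markers had log2 fold changes above 0. Of the 15, edgeR called 0 and DESeq2 called 3 in that comparison, namely Id2, Il1rl1 and Il2ra. Il1rl1, the gene targeted in St2 KO, is among the 12 and is part of the sums. Several libraries stood apart: St2 KO replicate 4 in 3 of the integrin genes, Il25 KO replicate 3 in macrophage and dendritic cell transcripts, Il25 KO replicate 1 in epithelial transcripts (494.7 CPM, against 20.87 to 117.4 CPM in the others), and Alox5 KO replicates 1 and 2 and St2 KO replicate 1 in low plasma cell transcripts. Alox5 averaged 9.84 ± 3.39 CPM in Alox5 KO and 96.2 ± 32.8 CPM in WT (SD, n = 4). Counts over whole genes could not check the labels Il25 KO and St2 KO, since Il25 had 0 counts in all 16 libraries and Il1rl1 averaged 172.9 ± 37.6 CPM in St2 KO and 215.5 ± 34.7 CPM in WT.

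Resting duodenal ILC2 carried abundant transcripts of 7 of the 10 chains and few of the other 3. Levels were compared between genes as CPM per kilobase of annotated exon, averaged over 16 libraries. Itgb7 led with 189.7 ± 18.1 CPM per kilobase (SD), above Itgb3 with 62.4 ± 5.15 in all 16 libraries and with no overlap of the ranges. Itgb2 followed with 59.3 ± 8.81, Itgb1 with 49.1 ± 6.17, Itgal with 35.0 ± 4.57 and Itga4 with 30.0 ± 9.18 CPM per kilobase. Neighbours in this stretch of the order had overlapping ranges: Itgb3 was above Itgb2 in 11 of 16 libraries, Itgb2 above Itgb1 in 14, Itgb1 above Itgal in 16 and Itgal above Itga4 in 12. Itgav had 11.7 ± 2.50 CPM per kilobase, below Itga4 in all 16 libraries without overlap. Itgae had 1.90 (0.239 to 9.16 over the libraries), Itga1 0.353 ± 0.251 and Itga6 0.342 ± 0.326 CPM per kilobase, where Itgae was above Itga1 in 14 of 16 libraries and Itga1 above Itga6 in 9. With the length of the principal transcript in place of all exons the order was the same except that Itga6 (0.716 CPM per kilobase) came above Itga1 (0.598 CPM per kilobase).

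**Figure D1:**
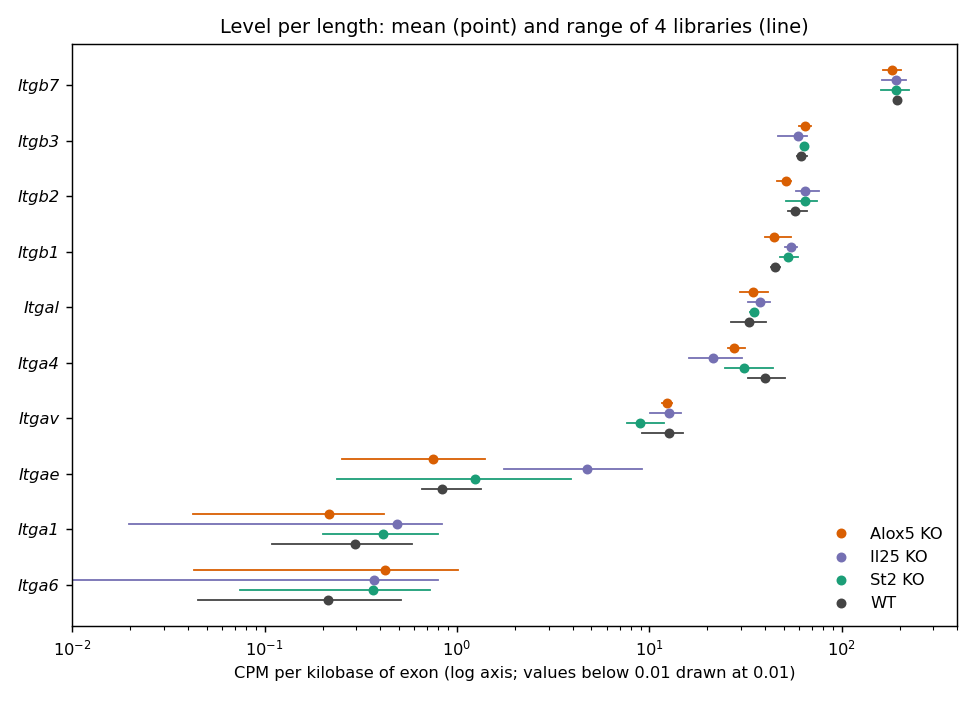
Level of each integrin gene in CPM per kilobase of annotated exon (log axis), with the mean (point) and range (line) of 4 libraries for Alox5 KO, Il25 KO, St2 KO and WT from top to bottom. Itgb7 lies highest in every genotype, Itga1 and Itga6 lie lowest, and Itgae is the gene whose genotypes lie farthest apart.

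The genes also differed in how much they varied between libraries. The coefficient of variation over the 16 libraries, computed on CPM, was 8.25% for Itgb3, 9.54% for Itgb7, 12.6% for Itgb1, 13.1% for Itgal and 14.9% for Itgb2. It was 21.5% for Itgav and 30.6% for Itga4. It reached 71.0% for Itga1, 95.5% for Itga6 and 127% for Itgae, the 3 genes with the lowest counts (0 to 103 counts per library among them). Among the 7 abundant genes, Itga4 and Itgav varied most.

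**Figure D2:**
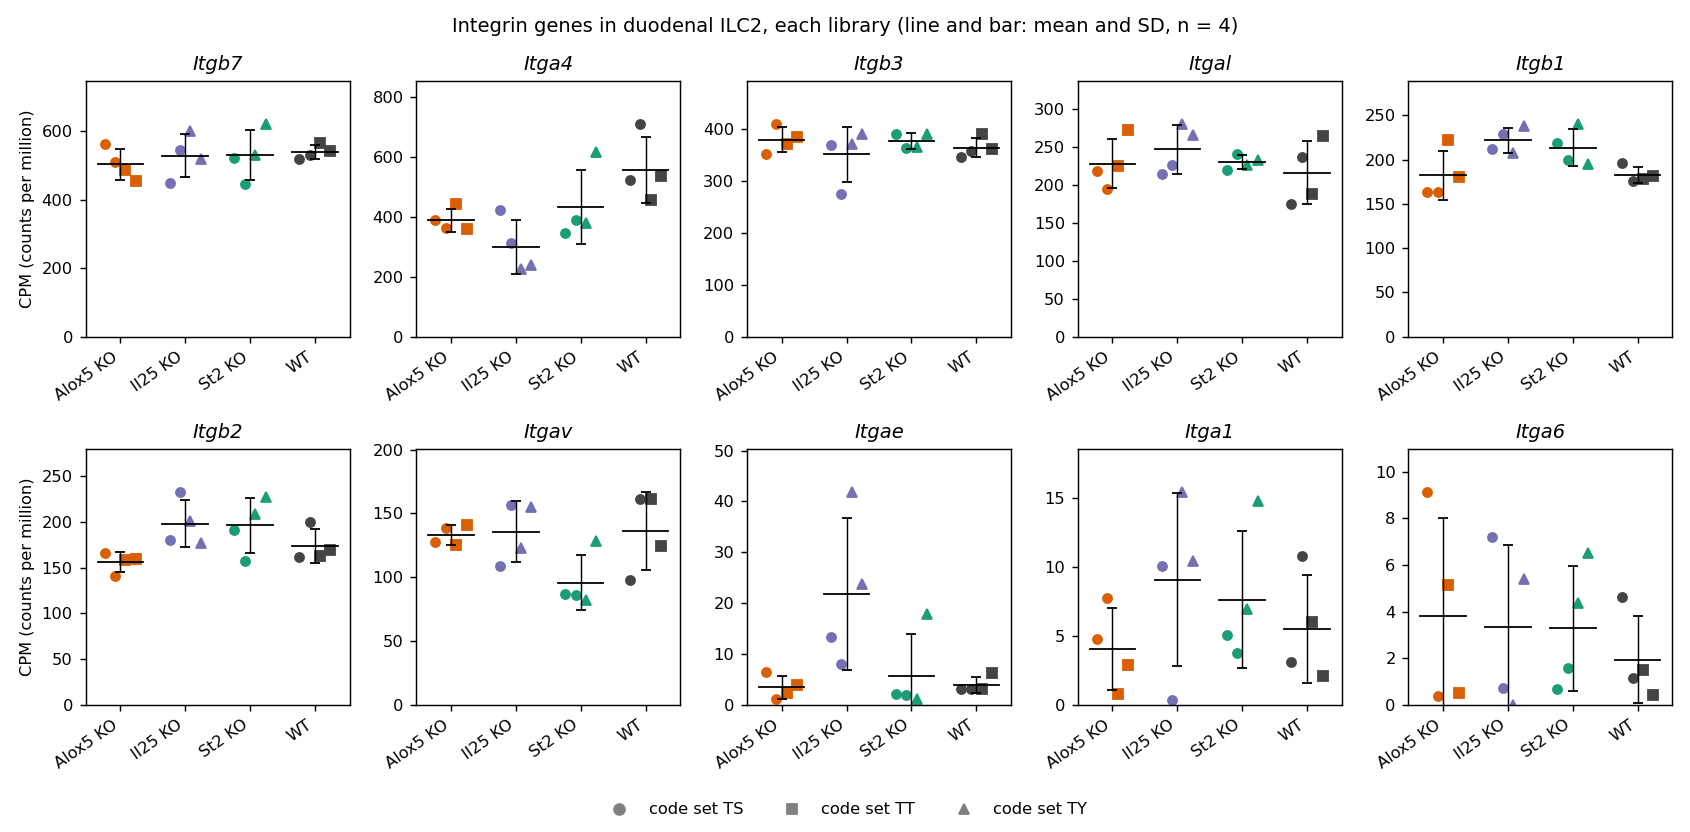
CPM of the 10 integrin genes in each library, for Alox5 KO, Il25 KO, St2 KO and WT from left to right, with the mean (line) and SD (bar, n = 4) of each genotype and the code set as the marker shape. Error bars are drawn only above 0. Itgae reaches 41.95 CPM in Il25 KO, Itga4 is lowest in Il25 KO, and St2 KO replicate 4 lies above the other St2 KO libraries in Itga4, Itgav and Itgae.

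Itgae, which encodes the alphaE chain of the E-cadherin receptor (ENSMUSG00000005947, GRCm38 chromosome 11, 73090583 to 73147446, plus strand), was the only one of the 10 genes called in any comparison. It had 13.3, 8.07, 42.0 and 23.7 CPM in Il25 KO replicates 1 to 4. St2 KO had 2.02, 1.87, 1.10 and 17.9 CPM. Alox5 KO had 6.37, 1.16, 2.38 and 3.83 CPM, and WT had 3.09, 3.09, 3.01 and 6.13 CPM. All 4 Il25 KO libraries lay above all WT and all Alox5 KO libraries and above 3 of the 4 St2 KO libraries. Il25 KO was not tested against Alox5 KO, and the share of all genes separated in that pair was not counted. No difference is read from that pair. St2 KO replicate 4 lay within the Il25 KO range. In bulk RNA, fewer cells carrying a transcript and less transcript per cell cannot be told apart, here and below.

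Itgae averaged 21.8 ± 14.9 CPM across Il25 KO libraries and 5.72 ± 8.13 CPM across St2 KO libraries, a log2 fold change of 1.94 ± 0.458 (± SE, edgeR quasi-likelihood test, adjusted p = 0.0402). The call was 1 of 10 genes, in a comparison that called 1.24% of all tested genes and 0.852% as higher. The difference had the same sign within both sets, with log2 fold changes of 2.49 ± 0.977 in TS and 1.77 ± 0.543 in TY. Without St2 KO replicate 4 it was 3.40 (adjusted p = 0.00185). Without Il25 KO replicate 3 it was 1.66 (adjusted p = 0.224), without Il25 KO replicate 1 it was 1.83 (adjusted p = 0.0672), and with the 3 plasma-poor libraries left out it was 1.89 (adjusted p = 0.112). Of 16 fits that each left out 1 library, the call was kept in 5 (without Alox5 KO 1, Alox5 KO 2, Il25 KO 4, St2 KO 4 or WT 4) and lost in the others, with adjusted p-values of 0.0535 to 0.224, while the sign was the same in all 16.

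The other comparisons of Itgae did not pass. Il25 KO over WT gave a log2 fold change of 1.49 ± 0.788 (edgeR, adjusted p = 0.600), and 1.81 ± 0.925 within set TS alone. St2 KO over WT gave -0.45 ± 0.917 (adjusted p = 0.943) and Alox5 KO over WT -0.14 ± 0.813 (adjusted p = 0.975). The counts behind these values were low, between 3 and 103 per library. Over all 4 genotypes at once the edgeR test gave an adjusted p of 0.146.

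Marker transcripts of other cells, some of which can carry alphaE, were read beside this result. The macrophage and dendritic cell markers summed to 79.4 CPM in Il25 KO replicate 3, the library with the most Itgae, and to 15.5, 49.9 and 10.8 CPM in Il25 KO replicates 1, 2 and 4. They summed to 16.2 to 21.8 CPM in St2 KO and 17.2 to 48.7 CPM in WT. Xcr1, a chemokine receptor of cross-presenting dendritic cells, was detected in all 16 libraries (8.77 to 45.6 CPM) and is part of these sums. Without Xcr1 the markers summed to 44.0 CPM in Il25 KO replicate 3 and to 1.08 to 11.7 CPM in the other 15 libraries. Il25 KO replicate 3 also held 7 counts of Clec9a, a marker of cross-presenting dendritic cells, 8 counts of Itgax, the CD11c chain, and 16 counts of Cd8a. Clec9a and Itgax were at 0 in the other 15 libraries, and Cd8a was at 0 in 14 libraries. In Il25 KO replicate 4, with the second highest Itgae of 23.7 CPM, 13 of the 15 macrophage and dendritic markers were at 0, Clec9a and Itgax among them. The T cell markers summed to 507.1 to 666.8 CPM in Il25 KO, 520.7 to 616.9 CPM in St2 KO and 585.8 to 635.7 CPM in WT. Trbc1 (212.9 to 329.2 CPM), Trbc2 (159.3 to 229.5 CPM) and Cd3g (54.4 to 147.6 CPM) made up most of these sums in all 16 libraries. Trac ran from 0.719 to 16.2 CPM, so the sums cannot show whether T cell content was even. Cd8b1, which encodes the CD8 beta chain, was at 0 in all 16 libraries. Trdc, the constant gene of the gamma-delta T cell receptor, was highest in Il25 KO replicate 3, with 34.6 CPM (85 counts), against 2.32 to 18.2 CPM in the other 15 libraries. Plasma and B cell markers summed to 1890 to 2628 CPM in Il25 KO, 641.4 to 2002 CPM in St2 KO and 2257 to 2593 CPM in WT. The part of these cells in the Itgae difference was not tested. The fits without single libraries cannot test it, because leaving out a library also removes its Itgae value.

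Haspin, a gene for a mitotic kinase, lies inside Itgae on the opposite strand (chromosome 11, 73135485 to 73138294) and shares 0 exonic bases with it. Haspin had 7, 6, 4 and 11 counts in Il25 KO, 4, 17, 37 and 53 in St2 KO, 11, 4, 3 and 3 in Alox5 KO and 31, 35, 67 and 44 in WT. It was lower in Il25 KO than in WT (log2 fold change -3.46 ± 0.644, adjusted p = 0.00887) and lower in Alox5 KO than in WT (-2.94 ± 0.495, adjusted p = 0.00839), while Itgae did not pass in either comparison. In Il25 KO over St2 KO, Haspin gave -1.79 ± 0.519 (adjusted p = 0.107), the opposite sign to Itgae. The library kit does not keep the strand of origin, so reads from introns of either gene cannot be assigned by strand.

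Among the tested genes whose log2 CPM followed Itgae most closely over the 16 libraries were Slco3a1 (Pearson r = 0.754), Cpsf1 (r = 0.753), Lrch1 (r = 0.753) and Gm3375 (r = 0.750). These values describe 16 libraries that share genotype and set, and no test goes with them. None of these is an integrin gene.

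Itga4, which encodes the alpha4 chain (ENSMUSG00000027009, chromosome 2, 79255426 to 79333123, plus strand), had its lowest levels in Il25 KO and its highest in WT. Il25 KO had 422.6, 311.5, 225.2 and 239.6 CPM. Alox5 KO had 387.8, 360.9, 441.8 and 359.4 CPM, and St2 KO had 347.4, 387.6, 378.8 and 617.2 CPM, against 521.4, 710.3, 455.0 and 535.6 CPM in WT. Every Il25 KO and every Alox5 KO library lay below every WT library. In St2 KO, 3 of 4 libraries lay below the WT range and replicate 4 lay within it.

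Means of Itga4 were 299.7 ± 90.2 CPM in Il25 KO, 387.5 ± 38.5 in Alox5 KO and 432.7 ± 124.2 in St2 KO, against 555.6 ± 109.0 CPM in WT. The log2 fold changes against WT were -0.88 ± 0.236 for Il25 KO (adjusted p = 0.185), -0.50 ± 0.198 for Alox5 KO (adjusted p = 0.625) and -0.39 ± 0.243 for St2 KO (adjusted p = 0.764), all by edgeR, so none passed over all genes. These 3 comparisons share the WT libraries. Within set TS, where all genotypes have 2 libraries, they were -0.72 ± 0.193, -0.72 ± 0.194 and -0.77 ± 0.192. Il25 KO over WT passed without Il25 KO replicate 1 (-1.17, adjusted p = 0.0299) and with no set term (-0.85, adjusted p = 0.0393), and over 26 settings its adjusted p ranged from 0.0299 to 0.588. Itga4 was the 1 of 10 integrin genes whose ranges were separated in Alox5 KO over WT, against 3.84% of tested genes (2.08% lower). In Il25 KO over WT, 3 of 10 were separated, Itga4 lower and Itgb1 and Itgae higher, against 6.78% of tested genes (4.23% lower and 2.55% higher). Ranges were compared on CPM with no set term, here and below. Outside TS the Il25 KO libraries are in TY, read as female, and the WT libraries in TT, so set and sex enter this separation.

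Between the 2 Yarg-carrying knockouts, the fitted Itga4 difference was larger in TY than in TS, but a dependence on the set did not pass. Il25 KO over St2 KO gave a log2 fold change of -0.49 ± 0.202 over both sets (adjusted p = 0.358), with 0.05 ± 0.197 in TS and -1.06 ± 0.203 in TY. The difference between the sets was -1.11 ± 0.283. Itga4 was the only one of the 10 genes with an unadjusted p under 0.05 in this test, and over all genes the test failed (edgeR, adjusted p = 0.901), as for every tested gene (0% called). In TY, the Il25 KO libraries had 225.2 and 239.6 CPM and the St2 KO libraries 378.8 and 617.2 CPM. The value of 617.2 CPM is that of St2 KO replicate 4, which lay far from the other St2 KO libraries (347.4 to 387.6 CPM). Set and sex cannot be told apart in this contrast.

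Cerkl overlaps Itga4 on the opposite strand with 1124 shared exonic bases and had 19 to 60 counts per library. Cerkl averaged 13.9 ± 2.28 CPM in Il25 KO and 13.5 ± 7.29 CPM in WT.

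Itgb7, the beta chain shared by both gut receptors (ENSMUSG00000001281, chromosome 15, 102215995 to 102231944, minus strand), varied less between libraries than its alpha partners. Il25 KO had 449.7, 546.6, 599.5 and 520.2 CPM and St2 KO had 520.7, 445.8, 531.5 and 622.4 CPM. Alox5 KO had 562.6, 510.9, 487.0 and 453.8 CPM, against 518.7, 529.4, 565.6 and 541.8 CPM in WT. The knockout ranges all overlapped that of WT. Its log2 fold changes were -0.13 ± 0.113 in Il25 KO over WT, -0.17 ± 0.113 in St2 KO over WT, -0.09 ± 0.0928 in Alox5 KO over WT and 0.05 ± 0.0915 in Il25 KO over St2 KO, with adjusted p-values (edgeR) between 0.781 and 0.909.

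Itgb1, the beta chain of the VCAM-1, laminin and collagen receptors (ENSMUSG00000025809, chromosome 8, 128685654 to 128733200, plus strand), had separated ranges in Il25 KO and WT. It had 211.9, 228.9, 207.7 and 238.5 CPM in Il25 KO, against 195.8, 176.2, 178.0 and 181.0 CPM in WT, so that every Il25 KO library lay above every WT library. St2 KO had 219.2, 199.6, 240.7 and 194.7 CPM and Alox5 KO had 164.0, 163.9, 222.5 and 180.2 CPM. Il25 KO over WT gave a log2 fold change of 0.35 ± 0.128 (edgeR, adjusted p = 0.362), St2 KO over WT 0.25 ± 0.128 (adjusted p = 0.693) and Alox5 KO over WT 0.01 ± 0.108 (adjusted p = 0.988). None passed.

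The balance between chains was read as ratios of counts within a library, which do not depend on depth. The log2 ratio of Itgae to Itga4, the alpha chains that compete for beta7, was -4.97, -5.24, -2.42 and -3.33 in Il25 KO, against -7.31, -7.76, -7.15 and -6.40 in WT. St2 KO had -7.31, -7.58, -8.21 and -5.10, and Alox5 KO had -5.88, -8.06, -7.42 and -6.46. Itga4 counts exceeded Itgae counts in all 16 libraries, and all Il25 KO libraries had a higher ratio than all WT libraries. The mean difference was 3.17 for Il25 KO over WT (exact permutation test, two-sided, p = 0.0286, the smallest that 4 against 4 libraries can give) and 3.06 for Il25 KO over St2 KO (exact p = 0.0571). Adjusted over the 12 ratio tests both gave 0.229, so neither passed. Within set TS the differences were 2.43 and 2.34, and within TY Il25 KO over St2 KO gave 3.78.

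The log2 ratio of Itgb7 to Itgb1, the beta chains that join alpha4, averaged 1.25 ± 0.200 in Il25 KO, 1.31 ± 0.251 in St2 KO, 1.47 ± 0.293 in Alox5 KO and 1.56 ± 0.111 in WT (SD, n = 4). The differences from WT were -0.31, -0.25 and -0.09, with adjusted exact permutation p-values of 0.229, 0.343 and 0.900. On the per-length scale, alpha4 made up 27.9 ± 8.78% of the summed level of the 6 alpha chains in Il25 KO, 36.5 ± 3.58% in Alox5 KO, 39.8 ± 3.92% in St2 KO and 45.8 ± 4.47% in WT. AlphaE made up 6.05 ± 3.98% in Il25 KO, 0.975 ± 0.638% in Alox5 KO, 1.40 ± 1.76% in St2 KO and 0.967 ± 0.346% in WT. Itgb7 made up 51.5 ± 2.67% of the summed level of the 4 beta chains in Il25 KO, 53.1 ± 3.03% in Alox5 KO, 51.3 ± 2.07% in St2 KO and 54.3 ± 1.12% in WT.

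**Figure D3:**
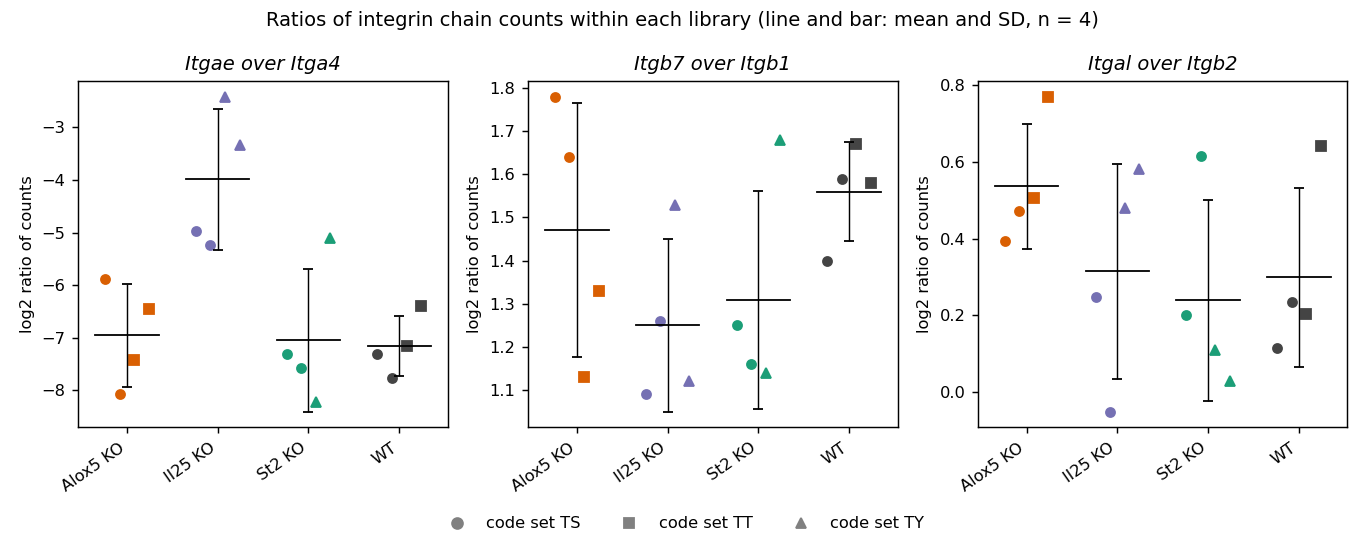
Log2 ratios of counts within each library for Itgae over Itga4, Itgb7 over Itgb1 and Itgal over Itgb2, for Alox5 KO, Il25 KO, St2 KO and WT from left to right, with the mean (line) and SD (bar, n = 4) and the code set as the marker shape. The Il25 KO libraries lie between -5.24 and -2.42 in the first panel and the WT libraries between -7.76 and -6.40. The genotypes overlap in the other panels.

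The LFA-1 genes varied little between libraries. Itgal, the alphaL chain (ENSMUSG00000030830, chromosome 7, 127296260 to 127335138, plus strand), averaged 246.2 ± 31.6 CPM in Il25 KO, 229.6 ± 9.15 in St2 KO, 227.5 ± 32.5 in Alox5 KO and 215.8 ± 41.7 in WT. The lowest of the 16 values was 175.0 CPM in WT replicate 1 and the highest 280.2 CPM in Il25 KO replicate 3. Itgb2, the beta2 chain (ENSMUSG00000000290, chromosome 10, 77530252 to 77565708, plus strand), averaged 197.9 ± 25.8 CPM in Il25 KO, 196.2 ± 30.0 in St2 KO, 156.0 ± 11.04 in Alox5 KO and 173.6 ± 18.3 in WT. It ran between 140.3 CPM in Alox5 KO replicate 2 and 233.3 CPM in Il25 KO replicate 2. Each knockout overlapped WT in both genes. Between knockouts, Itgb2 in Il25 KO (177.5 to 233.3 CPM) did not overlap Itgb2 in Alox5 KO (140.3 to 166.0 CPM). That pair of genotypes was not tested, and the share of all genes separated in it was not counted, so no difference is read from it. In the 4 comparisons tested, the log2 fold changes lay between -0.14 and 0.25, and the adjusted p-values (edgeR) lay between 0.662 and 0.936. The log2 ratio of Itgal to Itgb2 averaged 0.315 ± 0.281 in Il25 KO, 0.239 ± 0.260 in St2 KO, 0.536 ± 0.163 in Alox5 KO and 0.299 ± 0.233 in WT, and none of its 4 differences passed (adjusted exact permutation p of 0.343 to 0.943).

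Itgav, the alphav chain (ENSMUSG00000027087, chromosome 2, 83724397 to 83806916, plus strand), was lowest in St2 KO, in 3 of its 4 libraries. St2 KO had 86.7, 86.1, 81.8 and 128.3 CPM. Il25 KO had 108.5, 156.3, 123.0 and 155.2 CPM, Alox5 KO had 127.8, 138.3, 124.9 and 140.9 CPM, and WT had 98.1, 161.6, 161.1 and 124.2 CPM. Replicates 1 to 3 of St2 KO lay below all 12 libraries of the other genotypes, and replicate 4 lay among them. The log2 fold change was -0.58 ± 0.214 in St2 KO over WT (edgeR, adjusted p = 0.496) and 0.55 ± 0.173 in Il25 KO over St2 KO (adjusted p = 0.170), so neither passed. Without St2 KO replicate 4 they were -0.67 (adjusted p = 0.281) and 0.72 (adjusted p = 0.0826). Over 26 settings the adjusted p ranged from 0.253 to 0.902 in St2 KO over WT and from 0.0826 to 0.489 in Il25 KO over St2 KO. Il25 KO over WT gave -0.03 ± 0.208 and Alox5 KO over WT -0.02 ± 0.171.

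The non-coding gene Gm13684 overlaps Itgav on the opposite strand with 634 shared exonic bases, and had 11 to 90 counts per library. It averaged 8.48 ± 3.76 CPM in St2 KO, 17.2 ± 6.03 in Il25 KO, 13.1 ± 4.14 in Alox5 KO and 20.1 ± 9.90 in WT. Its log2 fold changes were -1.16 ± 0.520 in St2 KO over WT (adjusted p = 0.632) and 1.09 ± 0.418 in Il25 KO over St2 KO (adjusted p = 0.292), the same signs as Itgav. Without strand information the reads of the pair cannot be told apart where they overlap.

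Itgb3, the beta partner of alphav in the vitronectin receptor (ENSMUSG00000020689, chromosome 11, 104608000 to 104670476, plus strand), was the second most abundant chain per length. It averaged 377.7 ± 15.1 CPM in St2 KO, 351.5 ± 52.4 in Il25 KO, 379.9 ± 24.6 in Alox5 KO and 364.6 ± 18.8 in WT. A single library, Il25 KO replicate 2 with 274.4 CPM, lay apart from the other 15, which ran from 346.1 to 410.8 CPM. The log2 fold changes lay between -0.07 and 0.07, and none passed (edgeR, adjusted p of 0.855 to 0.998). In platelets beta3 joins alphaIIb, and Itga2b had 0 to 15 counts per library. The platelet markers, Pf4 and 7 others, summed to at most 3.30 CPM in Il25 KO, 2.02 in St2 KO, 1.16 in Alox5 KO and 1.51 in WT.

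Itga6 and Itga1, chains of the laminin and collagen receptors, were near the limit of this depth. Itga6 (ENSMUSG00000027111, chromosome 2, 71745616 to 71858416, plus strand) had 0 to 23 counts per library, and the 0 counts in Il25 KO replicate 3 allow a level of up to 1.22 CPM (3 counts, counting error only). It averaged 3.33 ± 3.52 CPM in Il25 KO, 3.29 ± 2.68 in St2 KO, 3.80 ± 4.21 in Alox5 KO and 1.93 ± 1.86 in WT. Itga1 (ENSMUSG00000042284, chromosome 13, 114953096 to 115101964, minus strand) had 1 to 43 counts per library and averaged 9.09 ± 6.32 CPM in Il25 KO, 7.63 ± 4.95 in St2 KO, 4.04 ± 2.95 in Alox5 KO and 5.49 ± 3.92 in WT. All genotypes overlapped in both genes, and no difference passed. Whether depth or the spread between libraries limited this was not tested. Standard errors of the log2 fold changes of both genes ran from 0.483 to 1.17. Inside Itga1, Pelo had 0 to 11, Gm10734 0 to 7 and Gm49395 0 to 2 counts per library.

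**Figure D4:**
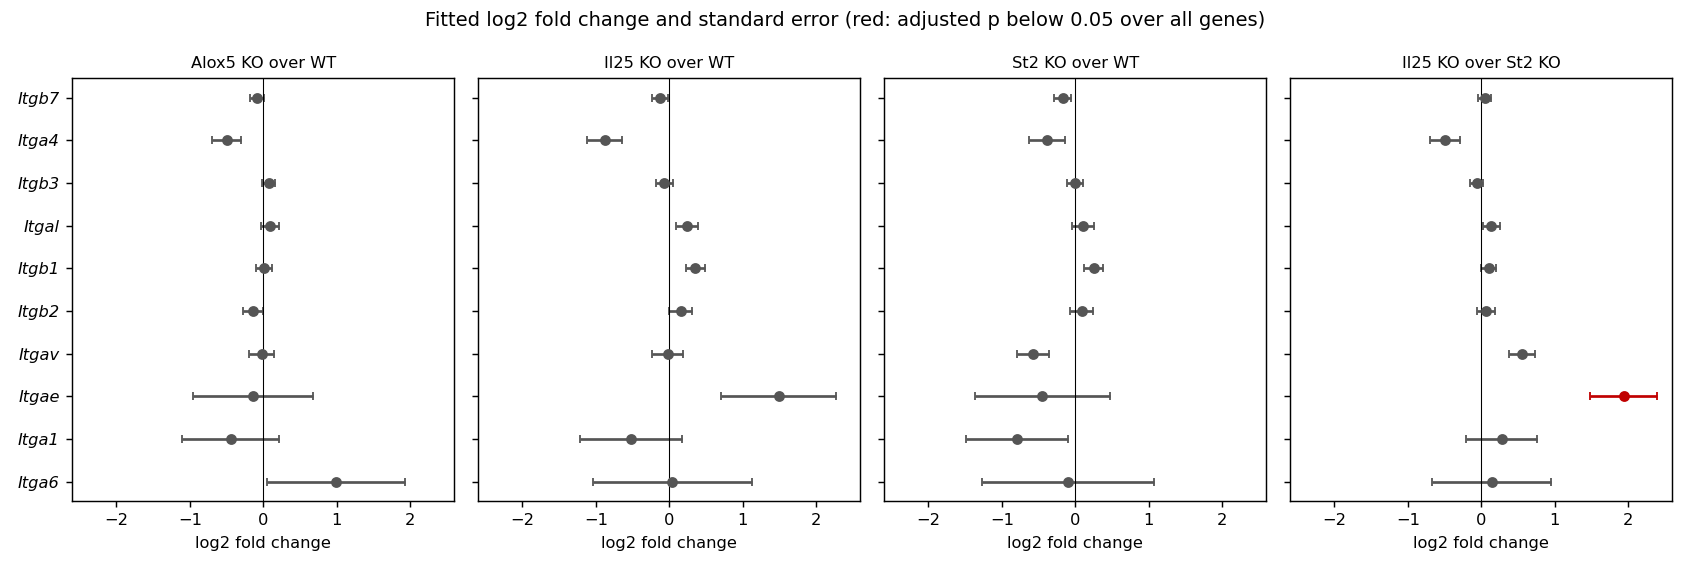
Log2 fold change (point) and standard error (bar) of each integrin gene in Alox5 KO over WT, Il25 KO over WT, St2 KO over WT and Il25 KO over St2 KO, from the edgeR model. The single red point is Itgae in Il25 KO over St2 KO at 1.94, and the widest bars belong to the genes of lowest count.

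Across the family, edgeR called 0 of 10 genes in Alox5 KO over WT (1 at an unadjusted p under 0.05, 0 by DESeq2), where 0.102% of tested genes were called. It called 0 of 10 in Il25 KO over WT (2 unadjusted, 0 by DESeq2), with 0.417% of genes called. It called 0 of 10 in St2 KO over WT (1 unadjusted, 0 by DESeq2), with 0.298% of genes called. Il25 KO over St2 KO had 1 of 10 (3 unadjusted, 1 by DESeq2), with 1.24% of genes called. The test over all 4 genotypes called 0 of 10 (3 unadjusted, 0 by DESeq2), with 1.17% of genes called. These shares are those of edgeR. Of 11742 genes, DESeq2 called 53, 82, 67 and 246 in the 4 comparisons in this order, and 299 over all 4 genotypes. The unadjusted counts, here and in the lists below, have no share over all genes beside them. Median log2 fold changes of the 10 genes were -0.05, 0.01, -0.14 and 0.12 in these 4 comparisons, against 0.01, 0.00, 0.01 and -0.01 over all tested genes. In St2 KO over WT and in Il25 KO over St2 KO, none of the 10 genes had separated ranges, while 8.47% and 5.95% of tested genes did.

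Of 17 further integrin chains, 4 passed the filter. Itga2, a collagen receptor chain, had 76 to 185 counts per library and 6.79 ± 1.51 CPM per kilobase over the 16 libraries, between Itgav and Itgae. Itga3 (0.927 CPM per kilobase), Itga5 (0.708) and Itgb6 (0.506) were low, and 11 of the 17 had at most 10 counts in any library. None of the 4 was called in any of the 4 comparisons with edgeR (up to 2 at an unadjusted p under 0.05) or DESeq2. The myeloid chains Itgad and Itgam had 0 counts and at most 1 count per library.

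The intracellular machinery that switches integrins on was abundant and held no called gene. Of 30 listed activators and adaptors 24 were tested, and none was called in the 4 comparisons (edgeR; between 1 and 5 at an unadjusted p under 0.05, and 1 by DESeq2, in Il25 KO over WT). Their summed level was 4850 to 5360 CPM in Il25 KO, 4949 to 5365 in St2 KO, 4857 to 5202 in Alox5 KO and 4970 to 5056 in WT. Tln1, which encodes the integrin-activating protein talin, averaged 288.3 CPM in Il25 KO, 309.8 in St2 KO, 292.4 in Alox5 KO and 308.5 in WT. Fermt3, which encodes the blood cell kindlin that works beside talin, averaged 379.8, 354.2, 320.7 and 363.3 CPM in the same order. Both were chosen for their role after their values were seen. Of 21 listed ligands and counter-receptors 5 were tested, and none was called (edgeR; at most 1 unadjusted in a comparison, 0 by DESeq2).

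Among 20 TGF-beta pathway genes, 17 were tested and 4 were called in Il25 KO over St2 KO, all higher (1.24% of all tested genes were called in this comparison, 0.852% as higher), with a list median log2 fold change of 0.26 against -0.01 over all genes. Skil, which encodes the SMAD repressor SnoN, had means of 544.1 ± 167.7 CPM in Il25 KO libraries and 214.9 ± 27.6 CPM in St2 KO libraries (1.38 ± 0.219, adjusted p = 0.00292). Tgif1, another repressor of SMAD-driven transcription, had 312.6 ± 56.9 CPM in Il25 KO libraries and 175.3 ± 45.1 CPM in St2 KO libraries (0.88 ± 0.180, adjusted p = 0.0164). Smad4, the partner shared by the signalling SMADs, gave 0.79 ± 0.171 (adjusted p = 0.0229), and Nrros, which tethers latent TGF-beta, gave 0.80 ± 0.120 (adjusted p = 0.000849). Ranges did not overlap in any of the 4, against 5.95% of all tested genes separated in this comparison. DESeq2 called the same 4. Both readings use the libraries that gave the edgeR calls, so they are no separate support. None of the 17 was called against WT by edgeR in any knockout (between 2 and 6 unadjusted, and 1 by DESeq2, in Il25 KO over WT). The list was chosen with earlier results of these data known.

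Among 20 genes of tissue residency and egress, 17 were tested and Cd69 was the only one called by edgeR. DESeq2 also called Cxcr4, a chemokine receptor, in Alox5 KO over WT (DESeq2 log2 fold change 1.81 ± 0.396, adjusted p = 0.00297), where edgeR gave an adjusted p of 0.0519. Cxcr4 was named after its values were seen. Cd69 encodes a membrane protein that keeps lymphocytes in tissue by opposing the egress receptor S1PR1. Its mean was 326.7 ± 19.9 CPM for Il25 KO and 146.2 ± 64.4 CPM for St2 KO (1.23 ± 0.177, adjusted p = 0.000599), and it fell in St2 KO against 299.6 ± 20.0 CPM in WT (-1.17 ± 0.218, adjusted p = 0.0199). Cd69 thus passed in the same comparison as Itgae. It did not pass in Il25 KO over WT (0.06 ± 0.203, adjusted p = 0.968) or Alox5 KO over WT (0.04 ± 0.169, adjusted p = 0.966).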

How the data were processed

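The authors deposited 1 table of raw counts per gene for 16 libraries, unscaled. Build GRCm38, FastQC 0.11.3, Picard 1.134, HTSeq 0.4.1 and STAR 2.4.2a stand in the submitters' processing notes; their settings and annotation are not given in the sources used here. Per the labels' protocols, Liberase TM digestion and a Percoll step came before the sort (gate not given), and libraries were made with Nextera XT, which does not mark strand.

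From 53471 rows, 6 with a repeated identifier were dropped. Counts were tested with the edgeR 4.0.16 quasi-likelihood F test (R 4.3.3, TMM scaling, default filter, robust) in a single model of genotype and code set over all libraries, with 10 residual degrees of freedom and Benjamini-Hochberg adjustment over 11742 genes at 0.05. A standard error is the log2 fold change divided by the square root of F. CPM used plain totals. Ratios added 0.5 to each count and were tested by exact permutation. The procedure was tested on simulated data. Gene positions and exon lengths came from the GENCODE annotation of GRCm38.

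The labels do not say whether libraries came from separate mice, so p-values measure the spread between libraries, which may be technical. The members and lists were chosen with earlier results of these data known. Named genes were all 10 members, called genes of the other lists (up to 4), tested other integrins, genes overlapping members, the targeted genes and the 5 most correlated with a called member, of which 1 is not reported here. Alternatives were no set term, a replicate block, DESeq2 1.42.0, other scalings, no filter, legacy edgeR, fewer genotypes or sets, and each library left out.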

Additional observations from a re-analysis of the deposited data

Results flagged for a closer look

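Each of 40 groups of 4 libraries (10 genes in 4 genotypes) was checked for a library far from the other 3, a check that chance alone meets in about 1 of 20 groups. It was met 4 times, and 3 of these were St2 KO replicate 4. There, Itgae had 17.9 CPM (1.10 to 2.02 CPM in the other St2 KO libraries), Itga4 had 617.2 CPM (347.4 to 387.6) and Itgav had 128.3 CPM (81.8 to 86.7). The fourth was Itgae in WT replicate 4, with 6.13 CPM (3.01 to 3.09 in the other WT libraries).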

How the results depend on the processing

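Low counts of Itgae, Itga1 and Itga6 limit what could be seen, and Il25 KO and St2 KO meet WT only in set TS. The count of 1 called gene in Il25 KO over St2 KO was 0 with no set term, with no filter, in legacy mode, with only the 2 genotypes, in set TS alone and with the 3 plasma-poor libraries left out (chosen after seeing the data), and 0 to 1 with 1 library left out. Itgae there ranged from 1.34 to 3.40 (adjusted p 0.00185 to 0.322) over 26 settings and passed in 8. Same-numbered libraries of a set showed little shared deviation (16 pairs, r -0.058 to 0.197, 3 over 0.1). Differently numbered ones gave r of -0.0757 to 0.162 (16 pairs, 4 over 0.1). These values do not settle whether the numbers pair libraries. A replicate block gave 0 calls in Il25 KO over St2 KO (edgeR, Itgae adjusted p = 0.0528). In Il25 KO over WT and over all 4 genotypes the count was 1 with no set term and 0 to 1 with 1 library left out, against 0.

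Apart from these, 74 values changed sign, none of them called. The cause was not tested. With no set term, Itgb7, Itgav and Itga1 in Il25 KO over WT were 0.01, 0.03 and 0.72, and Itgae, Itga6 and Itga1 in St2 KO over WT were 0.57, 0.70 and 0.43. In set TS alone, Itgae, Itgb7, Itgb1 and Itgav in Alox5 KO over WT were 0.27, 0.04, -0.18 and 0.04, Itgav in Il25 KO over WT 0.06, Itgb2 in St2 KO over WT -0.08, and Itga4 and Itgal in Il25 KO over St2 KO 0.05 and -0.02. With only the 2 genotypes, Itgav in Il25 KO over WT was 0.06 and Itgb2 in St2 KO over WT -0.08. With those 3 libraries left out, Itgav in Il25 KO over WT was 0.01, Itga6 in St2 KO over WT 0.18 and in Il25 KO over St2 KO -0.13.

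With 1 library left out, the ranges that crossed 0 were, in Alox5 KO over WT, -0.75 to 0.18 for Itgae, -0.08 to 0.08 for Itgb1, -0.03 to 0.19 for Itgal and -0.16 to 0.11 for Itgav. In Il25 KO over WT they were -0.06 to 0.28 for Itgb2, -0.26 to 0.18 for Itgav, -0.13 to 0.06 for Itgb3, -1.93 to 0.96 for Itga6 and -1.31 to 0.03 for Itga1. In St2 KO over WT they were -1.09 to 0.82 for Itga6 and -0.09 to 0.04 for Itgb3 (fit -0.002, not counted above). In Il25 KO over St2 KO they were -0.04 to 0.11 for Itgb7, -0.08 to 0.17 for Itgb2, -0.11 to 0.02 for Itgb3, -0.84 to 0.68 for Itga6 and -0.07 to 0.63 for Itga1. For the log2 ratio of Itgae to Itga4 they were -0.16 to 0.57 in Alox5 KO over WT and -0.54 to 0.49 in St2 KO over WT. For Itgb7 to Itgb1 they were -0.19 to 0.02 in Alox5 KO over WT and -0.15 to 0.07 in Il25 KO over St2 KO. For Itgal to Itgb2 they were -0.07 to 0.14 in Il25 KO over WT, -0.19 to 0.05 in St2 KO over WT and -0.01 to 0.20 in Il25 KO over St2 KO.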
